A study of Mus musculus with 6 samples.

Results

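The 51 genes described here are the Wnt ligands, their receptors, their secreted inhibitors and the proteins that carry the signal to the nucleus. They were chosen by symbol, and all 51 were found among the 49315 gene IDs of the count table through GENCODE M21. RNA was counted in the medial ganglionic eminence (MGE), a ventral forebrain region that gives rise to many cortical interneurons, from mouse embryos at embryonic day 14. The group labelled KO carried Nkx2.1-Cre, a homozygous floxed Prdm16 allele (Prdm16fl/fl) and Ai14, and the group labelled WT carried Nkx2.1-Cre, Prdm16+/+ and Ai14. Cre was thus present in both groups. It is driven from Nkx2.1, a gene of MGE progenitors, so that cells from outside this lineage in a dissection keep the floxed allele, and Ai14 is a fluorescent Cre reporter. Each group held 3 libraries, called KO 1 to KO 3 and WT 1 to WT 3 after their labels, and each library came from 1 pool of 3 embryos (6 eminences).

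Wnt proteins are lipid-modified by Porcn and carried out of the cell by Wls. They bind Frizzled receptors, with Lrp5 or Lrp6 as co-receptors, and so spare beta-catenin (Ctnnb1) from the destruction complex of Apc, Axin and Gsk3b. Beta-catenin then acts in the nucleus with the TCF/LEF factors, while Ror and Ryk receptors serve routes that do not need it. In the embryonic forebrain Wnt signalling is known above all from the cortical hem, a dorsal source of Wnt proteins, and from Wnt7a and Wnt7b, which neural progenitors send to growing brain vessels.

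Promoter sequence is shown for the 3 genes that were higher in the KO pools and held the TCF/LEF core CTTTGA, or TCAAAG on the other strand, in the 250 bases before a start site. RefSeq windows (GRCm38.p6) were at hand for 34 of the 51 members and for 9 of the 12 that changed. Capitals mark the core, and each run is written 5′ to 3′ on the strand of its gene.
Wnt5b (chr6:119449387-119449636, minus strand): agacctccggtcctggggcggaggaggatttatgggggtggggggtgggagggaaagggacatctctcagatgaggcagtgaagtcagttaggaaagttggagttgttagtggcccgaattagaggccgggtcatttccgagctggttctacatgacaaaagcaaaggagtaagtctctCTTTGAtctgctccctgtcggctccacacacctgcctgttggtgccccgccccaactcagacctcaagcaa
Fzd1 (chr5:4758217-4758466, minus strand): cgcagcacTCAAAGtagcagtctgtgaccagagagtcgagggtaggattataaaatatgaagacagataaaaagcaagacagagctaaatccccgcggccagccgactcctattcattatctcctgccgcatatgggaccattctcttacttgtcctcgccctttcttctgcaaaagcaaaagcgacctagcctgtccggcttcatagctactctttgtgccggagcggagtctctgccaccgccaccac
Lef1 (chr3:131156044-131156293, plus strand): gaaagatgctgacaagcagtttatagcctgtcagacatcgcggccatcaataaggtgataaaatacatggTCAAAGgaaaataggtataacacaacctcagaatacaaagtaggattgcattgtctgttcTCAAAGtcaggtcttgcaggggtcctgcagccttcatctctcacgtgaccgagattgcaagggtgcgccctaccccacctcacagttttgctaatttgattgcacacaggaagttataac
The Wnt5b core lay 71 bases before the start and was the only match among the members to the longer form CTTTGAT. The Fzd1 core lay 242 bases before its start, and the 2 cores of Lef1 began 180 and 120 bases before theirs. The Fzd1 start site is 181 bases upstream of the GENCODE gene, whereas those of Lef1 and Wnt5b are internal starts, 45823 and 94961 bases inside the gene and outside annotated exons over the whole window. Of all 32851 windows 13.8% held the 6-letter core and 3.21% the 7-letter form, and 7 of the members' 43 windows held the core. Lef1 had 4 start sites with a window, Wnt5b 3 and Fzd1 1, and for each gene only the window shown held the core. A match describes these letters only.

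Total counts ran from 36517047 to 55552298 in the KO libraries and from 33188277 to 46301483 in the WT libraries. Levels are CPM, read counts scaled to the library size after TMM adjustment. A gene passed at an adjusted p under 0.05 in edgeR's quasi-likelihood test over all 18079 genes kept by a filter on low counts. Prdm16 itself had 53.6, 51.3 and 45.8 CPM in KO 1 to 3, against 55.8, 47.0 and 45.4 CPM in WT 1 to 3. It did not pass (log2 fold change 0.02, SE 0.09, edgeR adjusted p = 0.884). The excised part of the floxed gene was not given by the labels, so the gene total does not check them, and each direction below rests on the labels. Of 14 genes of MGE identity 4 rose and 5 fell; Nkx2-1, which specifies the MGE, had 769.5 ± 118 CPM in KO and 646.8 ± 29.4 CPM in WT libraries and Lhx6, which acts downstream of it in interneurons, fell to 502.6 ± 26.6 CPM in KO, against 651.8 ± 31.2 CPM in WT libraries (mean ± SD, n = 3 each, as for every mean here). KO 1 stood apart from the other KO libraries on the second principal component (34.99, against -11.58 in KO 2 and -12.4 in KO 3), which held 16.1% of the variance. On the first, which held 55.9%, KO 1 lay nearer the WT libraries than KO 2 and KO 3 did. Its value was -15.91, against -35.44 in KO 2, -37.18 in KO 3 and 28.27 to 30.96 in the WT libraries. In bulk tissue fewer cells of a type and less RNA per cell cannot be told apart.

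Of the 51 genes 48 could be tested. In the KO pools 8 rose (Wnt5b, Wnt7b, Fzd1, Fzd7, Fzd9, Fzd10, Lef1 and Tcf7l1), 4 fell (Fzd6, Ror2, Apc and Tcf7l2) and 36 did not pass. The share that passed, 25.0%, stands beside 20.2% of all tested genes, with 16.7% of the members higher against 9.72% of all genes and 8.33% lower against 10.5%. A share so near the background is not a result about the pathway as a whole. The median log2 fold change was 0.07 over the tested members and -0.002 over all genes, and 22 of the 48 lay within 0.2 of 0. In 19 members the 3 libraries of the groups did not overlap (39.6%, against 39.9% of all genes), with the KO libraries above in 11 (20.3% of all genes) and below in 8 (19.6%). Wnt3a, Dkk1 and Wif1 had too few counts for the test.

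**Figure D1:**
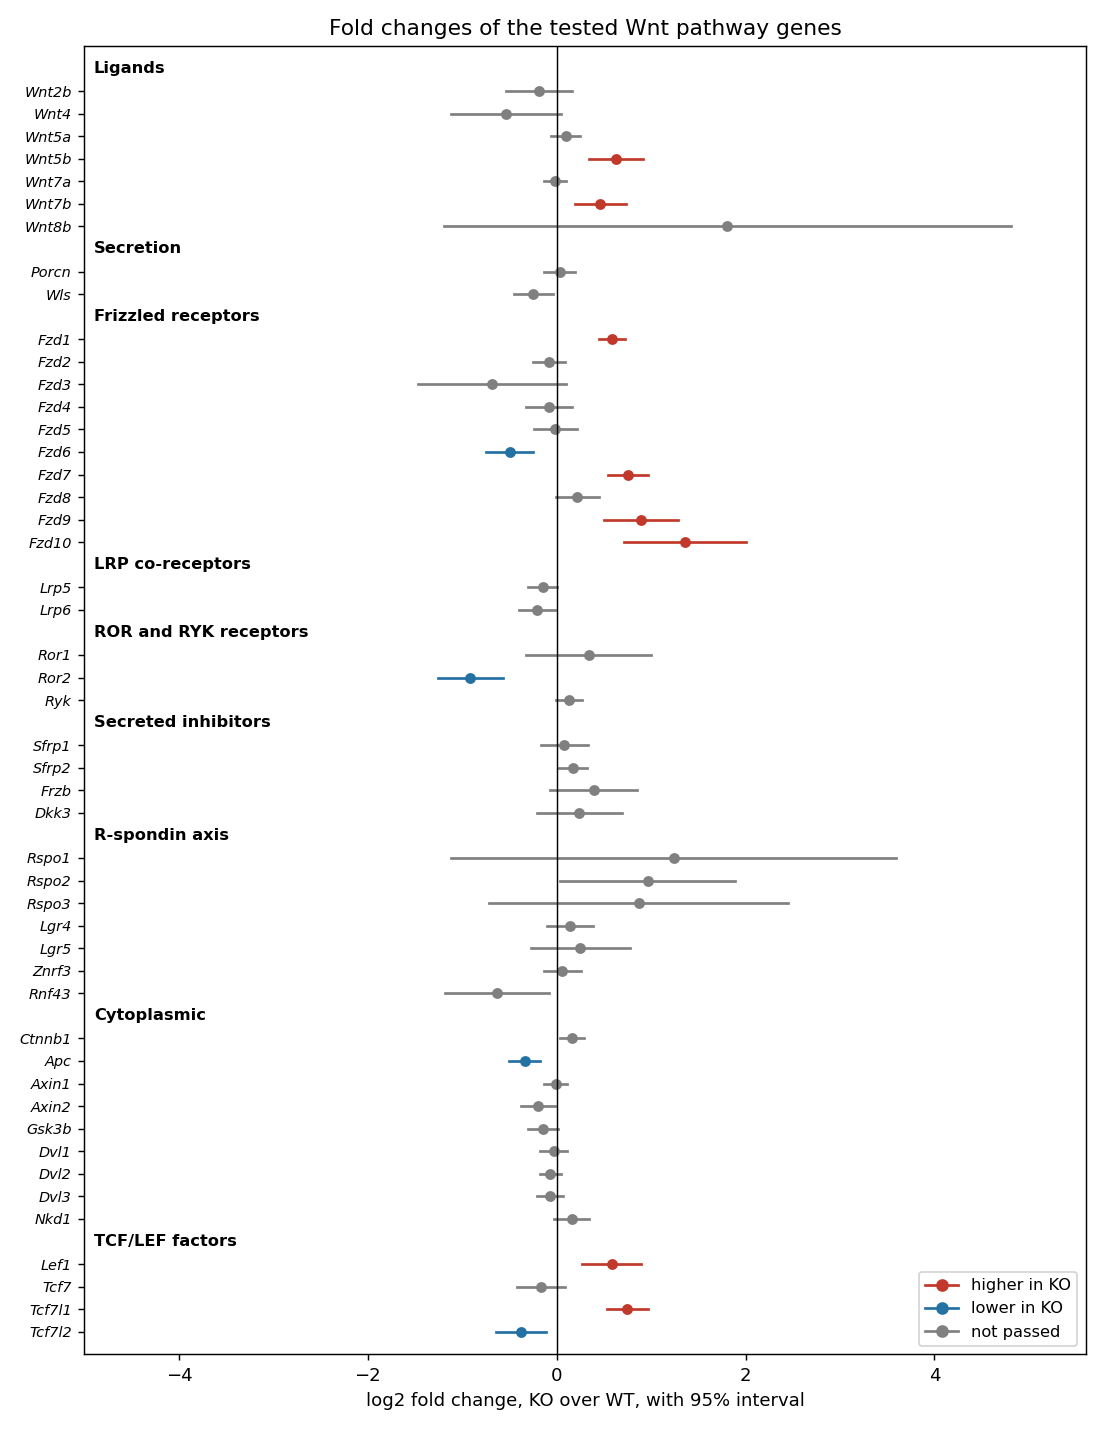
Log2 fold change of each of the 48 tested genes, KO over WT, by role (x axis: log2 fold change; points: edgeR estimate; lines: 95% interval). The 8 genes that rose are red, the 4 that fell are blue and the 36 that did not pass are grey; Wnt8b, Rspo1 and Rspo3 have the widest intervals.

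**Figure D2:**
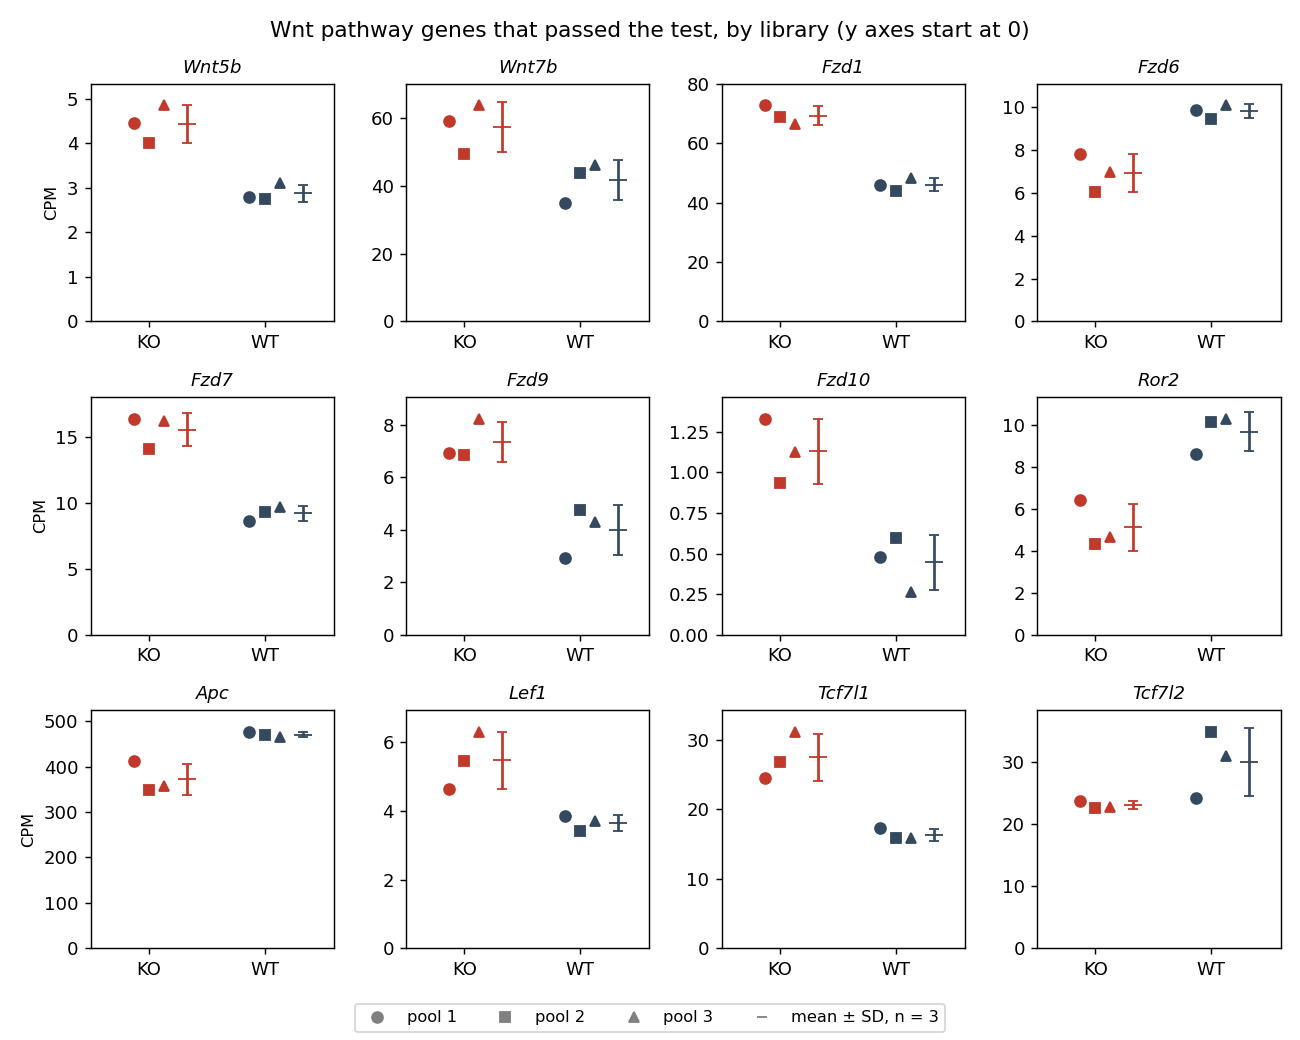
CPM of the 12 genes that passed, by library (y axis: CPM from 0; symbols: pools 1 to 3, which are not paired between groups; bars: mean ± SD, n = 3). The 3 KO libraries lie above the 3 WT libraries in 8 panels and below them in those of Fzd6, Ror2, Apc and Tcf7l2. In the Tcf7l2 panel KO 1 and WT 1 nearly meet.

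The ligand level was set by Wnt7a and Wnt7b, and the second of these rose. Per kb of exon, which allows genes to be compared, Wnt7a had 22.6 ± 0.702 CPM per kb in KO and 22.8 ± 0.670 CPM per kb in WT libraries. Wnt7b followed with 11.7 ± 1.51 CPM per kb in KO and 8.52 ± 1.23 in WT libraries. Then came Wnt5a with 3.22 ± 0.152 CPM per kb in KO and 3.01 ± 0.0753 in WT libraries, and Wnt5b with 1.68 ± 0.160 CPM per kb in KO and 1.09 ± 0.0725 in WT libraries. These 4 kept this order in both groups without overlap between neighbours. Below them Wnt2b, another hem ligand, had 0.625 ± 0.0140 CPM per kb in KO and 0.711 ± 0.128 in WT libraries. Wnt4 and Wnt8b came next with 0.190 ± 0.0339 and 0.205 ± 0.261 CPM per kb in KO libraries, which do not differ beyond their spread, and with 0.283 ± 0.0798 and 0.0672 ± 0.0592 CPM per kb in WT libraries. Wnt3a, a hem ligand, had 0, 1 and 5 counts in KO 1 to 3 and 0, 0 and 5 counts in WT 1 to 3, at or near the floor of 3 counts.

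Wnt7b (ENSMUSG00000022382, GRCm38 chromosome 15, 85535437 to 85582473), which acts on brain vessels and in the cortex, had 59.2, 49.4 and 63.9 CPM in KO 1 to 3, against 34.9, 44.0 and 46.3 CPM in WT 1 to 3. The groups did not overlap, though KO 2 and WT 3 were close. It rose 1.38-fold (95% interval 1.15 to 1.66, edgeR adjusted p = 0.0274), and did not pass without KO 1 (adjusted p = 0.128), KO 3 (0.0913), WT 1 (0.0673) or WT 2 (0.0691). Of its exon bases 6.61% overlap the antisense gene AU022754, which had 61 to 109 counts per KO library and 35 to 51 per WT library. Its paralog Wnt7a had 72.9, 73.0 and 69.1 CPM in KO 1 to 3, against 72.3, 70.4 and 74.7 CPM in WT 1 to 3, and its 95% interval of 0.910 to 1.07 around a fold of 0.988 bounds any difference. Wnt5b (ENSMUSG00000030170, chromosome 6, 119432531 to 119544347), a ligand mostly of the routes without beta-catenin, had 4.47, 4.01 and 4.86 CPM in KO 1 to 3, against 2.80, 2.75 and 3.10 CPM in WT 1 to 3. Every KO library was above every WT library, and the gene rose 1.55-fold (1.26 to 1.89, edgeR adjusted p = 0.0120). Its adjusted p was 0.0536 without KO 3 and 0.0569 without WT 2. Its more abundant paralog Wnt5a, at 25.2 ± 1.19 CPM in KO and 23.6 ± 0.589 CPM in WT libraries, did not pass (edgeR adjusted p = 0.330).

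Markers of dorsal forebrain moved with Wnt7b. In the dorsal pallium list (11 genes of the developing cortex such as Emx1 and Tbr1, none at 0) 6 of 11 rose and 0 fell, and its summed level was 120.7, 92.9 and 143 CPM in KO 1 to 3, against 49.8, 80.3 and 71.9 CPM in WT 1 to 3. KO 3 was highest and WT 1 lowest in both this sum and Wnt7b. Without KO 3 the count was 2 of 11, where 3.31% of all genes rose, against 9.72% with all libraries. It was 4 of 11 without KO 1, where 20.6% of all genes rose. The part of neighbouring tissue in the Wnt7b result was not tested.

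Of the 10 Frizzled receptors 4 rose in the KO pools (Fzd1, Fzd7, Fzd9 and Fzd10), 1 fell (Fzd6) and 5 did not pass, where 9.72% of all genes rose and 10.5% fell. Fzd1 (ENSMUSG00000044674, chromosome 5, 4753839 to 4758035) had 72.9, 68.8 and 66.5 CPM in KO 1 to 3, against 46.2, 43.9 and 48.4 CPM in WT 1 to 3. The groups were far apart, and Fzd1 rose 1.503-fold (95% interval 1.37 to 1.65, edgeR adjusted p = 0.000459). Fzd7 (ENSMUSG00000041075, chromosome 1, 59482424 to 59486955), its close relative, had 16.4, 14.1 and 16.2 CPM in KO 1 to 3, against 8.63, 9.29 and 9.73 CPM in WT 1 to 3. It rose 1.69-fold (1.46 to 1.96, edgeR adjusted p = 0.00109), and no WT library reached any KO library.

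Fzd9 (ENSMUSG00000049551, chromosome 5, 135248938 to 135251230) had 6.95, 6.86 and 8.25 CPM in KO 1 to 3, against 2.93, 4.75 and 4.30 CPM in WT 1 to 3. It rose 1.86-fold (1.42 to 2.43, edgeR adjusted p = 0.00952), with the KO libraries all above the WT libraries. Fzd10 (ENSMUSG00000081683, chromosome 5, 128600844 to 128604093), the rarest of the 10, had only 59, 34 and 62 counts in KO 1 to 3, against 22, 20 and 10 counts in WT 1 to 3. It rose 2.56-fold, with a wide interval of 1.63 to 4.004 (edgeR adjusted p = 0.0137). Without WT 3, its lowest library, the adjusted p was 0.0514.

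Fzd6 (ENSMUSG00000022297, chromosome 15, 39006034 to 39038188), known for planar cell polarity, which orients cells in a sheet, had 7.81, 6.04 and 6.996 CPM in KO 1 to 3, against 9.88, 9.47 and 10.1 CPM in WT 1 to 3. All KO libraries were below all WT libraries, and it fell to 0.709 of the WT level (0.596 to 0.843, edgeR adjusted p = 0.0166). Its call was lost in each fit that left out 1 library other than KO 1, with adjusted p-values up to 0.0711. Fzd3, which guides axons and is the other Frizzled of planar polarity, had 47.4, 22.5 and 23.0 CPM in KO 1 to 3, against 53.3, 52.2 and 43.5 CPM in WT 1 to 3. KO 1 lay within the WT range while KO 2 and KO 3 were far below it. Fzd3 did not pass (log2 fold change -0.68, SE 0.32, edgeR adjusted p = 0.180), and without KO 1 its log2 fold change was -1.12 (adjusted p = 9.65e-06).

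Summed over the 10 genes, the Frizzled level was 63.9 ± 3.23 CPM per kb in KO and 57.6 ± 4.03 CPM per kb in WT libraries. Fzd2 led in both groups and did not pass, at 98.2, 93.0 and 93.3 CPM in KO 1 to 3, against 112, 92.3 and 95.3 CPM in WT 1 to 3. Fzd1 made up 25.9 ± 0.465% of the sum in KO and 19.1 ± 1.46% in WT libraries, whereas Fzd2 made up 40.6 ± 0.793% in KO and 47.3 ± 1.71% in WT libraries. Next was Fzd8, with 12.8 ± 0.649% in KO and 12.1 ± 0.980% in WT libraries. By KO mean Fzd7 and Fzd9 followed, with 3.44 ± 0.281 and 3.21 ± 0.338 CPM per kb, and did not differ beyond their spread. Fzd3 had 2.417 ± 1.115 CPM per kb in KO libraries, but in KO 1 its 3.705 was above Fzd7 (3.62) and Fzd9 (3.03). In WT libraries Fzd3 came after Fzd8 with 3.88 ± 0.420 CPM per kb, ahead of Fzd6 and Fzd7 with 2.04 ± 0.0657 and 2.03 ± 0.122 CPM per kb. Fzd10 was last in both groups. Fzd4, the Norrin receptor of brain vessels, and Fzd5 had 1.16 ± 0.0430 and 1.28 ± 0.0391 CPM per kb in KO and 1.22 ± 0.140 and 1.30 ± 0.131 CPM per kb in WT libraries and did not pass (log2 fold changes -0.08 and -0.01).

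**Figure D3:**
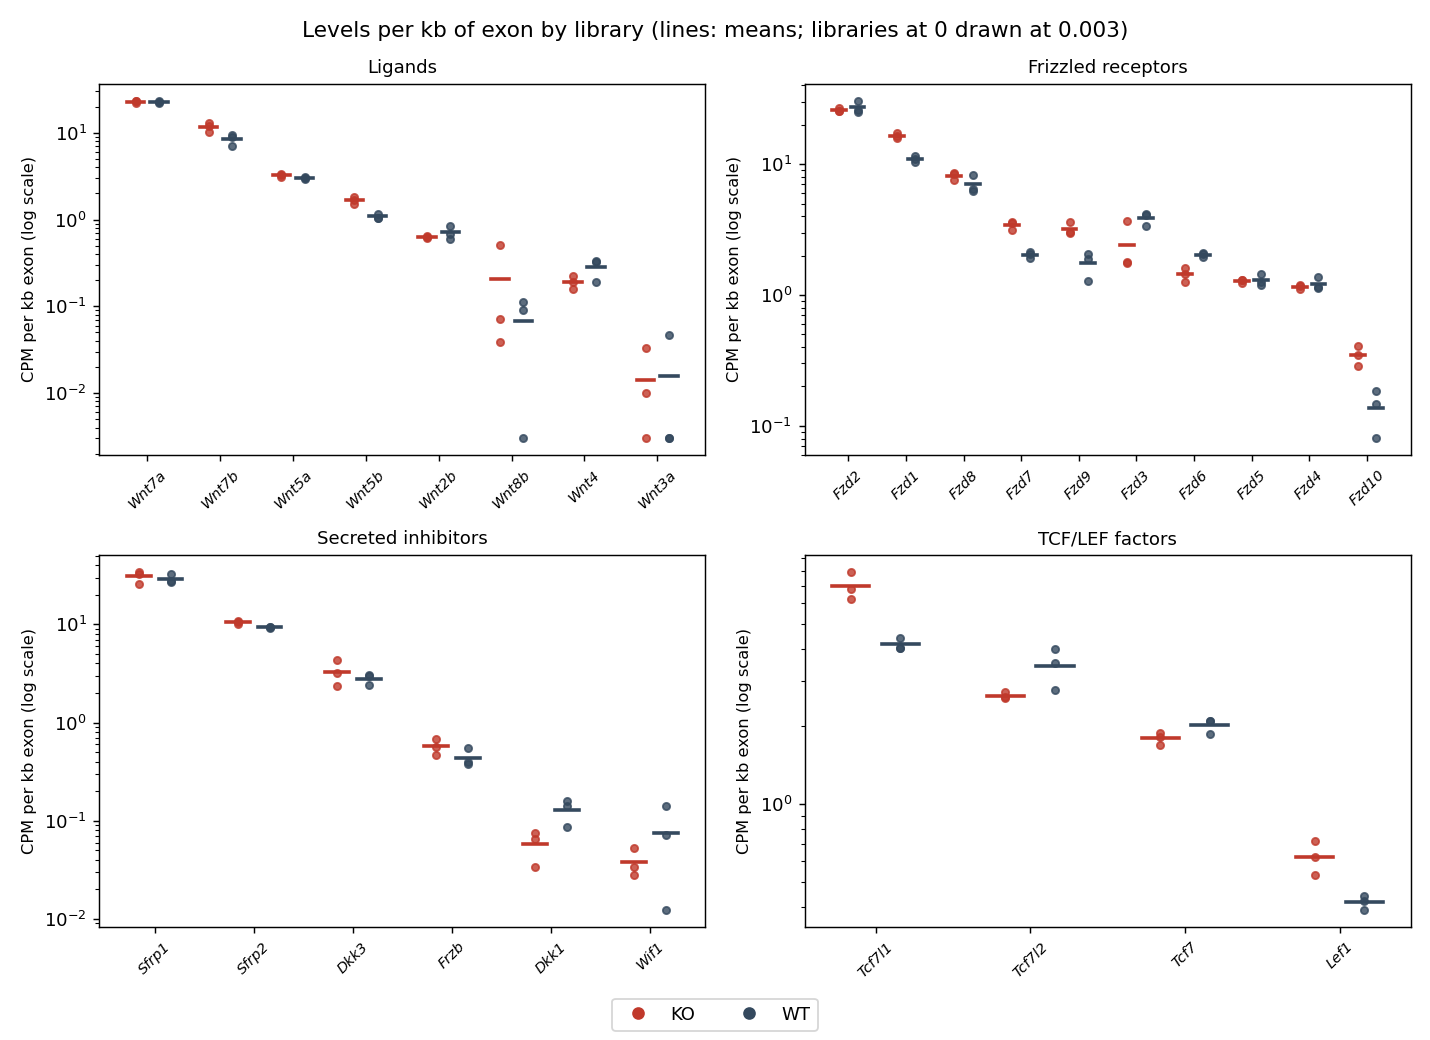
Level of each ligand, Frizzled receptor, secreted inhibitor and TCF/LEF factor by library (y axis: CPM per kb of exon, log scale; points: libraries, KO left of WT; lines: means of 3 libraries; libraries at 0 are drawn at 0.003). Wnt7a, Fzd2 and Sfrp1 lead their classes in both groups at like levels, while Tcf7l1 leads Tcf7l2 by more in KO libraries.

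**Figure D4:**
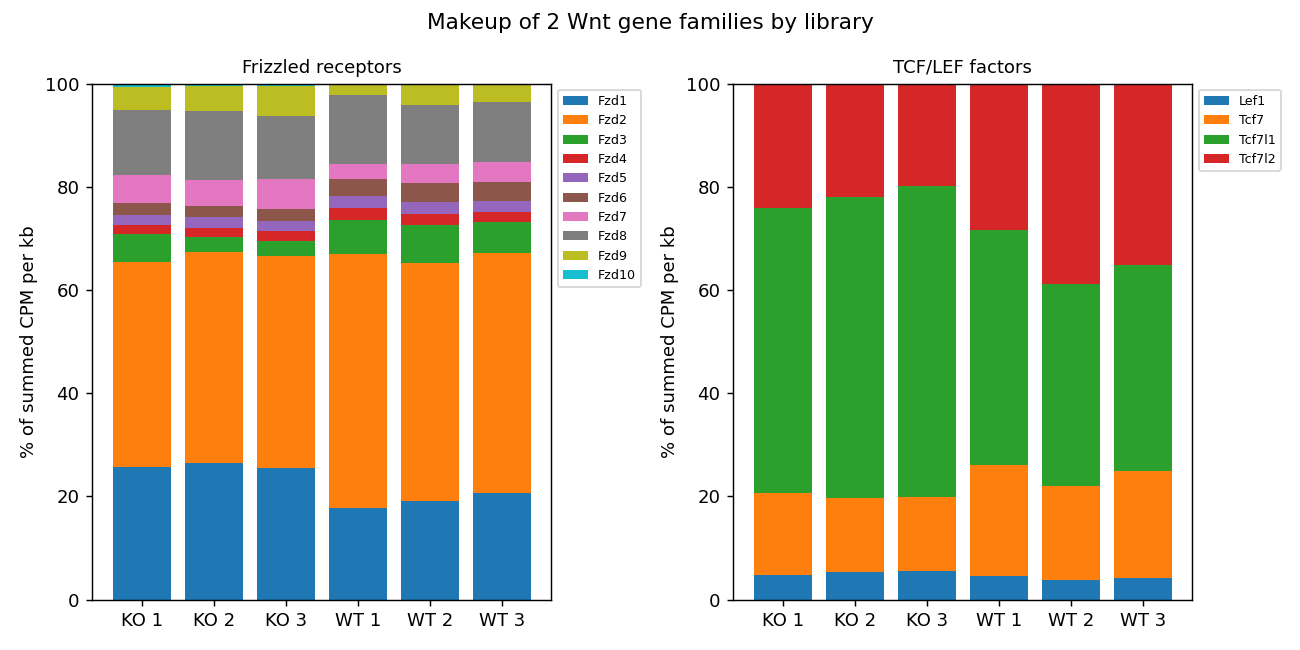
Share of each gene in the summed level of its family, by library (y axis: percent of summed CPM per kb; bars: libraries, KO left of WT). Fzd1 makes up 25.6 to 26.4% of the Frizzled sum in KO and 17.7 to 20.6% in WT libraries, and Tcf7l1 makes up 55.2 to 60.4% of the TCF/LEF sum in KO and 39.3 to 45.5% in WT libraries.

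Markers of radial glia, the progenitors of the ventricular zone, were higher in the KO group, as were the Frizzled genes that rose. Of 13 such genes 10 rose and 1 fell (Slc1a3), none was at 0 and Pax6 stands in the dorsal pallium list too. Their summed level was 3545, 3888 and 4020 CPM in KO 1 to 3, against 2713, 2582 and 2613 CPM in WT 1 to 3. The sum was lowest of the KO libraries in KO 1, where the CPM of Fzd1, Fzd7 and Fzd10 were highest. For Fzd7 the lead was slight (16.41 CPM, against 16.2 CPM in KO 3). Fzd10 had few counts (59 in KO 1 and 62 in KO 3). Fzd9, like the sum, was highest in KO 3. Of 14 genes of postmitotic neurons 1 rose and 3 fell, with sums of 6129 to 6580 CPM in KO and 6549 to 6943 CPM in WT libraries. The count of radial glia genes was the same without KO 1 and without KO 3. The part of progenitor number in the Frizzled result was not tested.

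Among the receptors that serve other routes, Ror2 fell. Ror2 (ENSMUSG00000021464, chromosome 13, 53109312 to 53286124), a receptor tyrosine kinase for Wnt5a, had 6.41, 4.34 and 4.64 CPM in KO 1 to 3, against 8.61, 10.1 and 10.3 CPM in WT 1 to 3. KO 1 was the highest KO library and still below WT 1, the lowest WT library. Ror2 was 1.88-fold lower (fold 0.531, 95% interval 0.418 to 0.674, edgeR adjusted p = 0.00506). Its relative Ror1 was rare, at 0.494 ± 0.146 CPM in KO and 0.394 ± 0.0376 CPM in WT libraries, and did not pass. Ryk, which binds Wnt through an inhibitor-like domain, was the most abundant of the 3, with 75.8, 83.9 and 83.4 CPM in KO 1 to 3, against 77.1, 71.9 and 73.2 CPM in WT 1 to 3 (log2 fold change 0.13, edgeR adjusted p = 0.149). Of 8 pericyte genes 7 fell, where 10.5% of all genes fell, and none was at 0. Without KO 3 the count was 2 of 8, where 4.31% of all genes fell. The remaining 1 did not pass, and its KO libraries lay above its WT libraries. Their sums were 250.6, 188 and 196 CPM in KO 1 to 3, against 238, 229 and 225 CPM in WT 1 to 3. The KO 1 sum was above all WT sums only through the 1 gene that did not pass. In each of the 7 that fell, as in Ror2, all KO libraries were below all WT libraries. The part of pericytes in the Ror2 result was not tested.

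The co-receptors and the secretion genes did not pass. Lrp6 had 113, 92.6 and 90.9 CPM in KO 1 to 3, against 120, 114 and 109 CPM in WT 1 to 3, and Lrp5 42.7 ± 3.36 CPM in KO and 47.2 ± 1.38 CPM in WT libraries. KO 2 and KO 3 were below all WT libraries for both genes, while KO 1 overlapped the WT libraries for both. Without KO 1 both passed as lower, Lrp6 with a log2 fold change of -0.31 (edgeR adjusted p = 0.000315) and Lrp5 with -0.20 (0.00869). Porcn had 29.7, 32.1 and 32.5 CPM in KO 1 to 3, against 28.4, 32.1 and 31.7 CPM in WT 1 to 3. Wls had 18.7 ± 2.04 CPM in KO and 22.2 ± 1.22 CPM in WT libraries, with no overlap between the groups (log2 fold change -0.25, edgeR adjusted p = 0.0816), and passed as lower without KO 1 (adjusted p = 0.00459).

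No secreted inhibitor passed. Sfrp1, a Wnt-binding relative of the Frizzled ectodomain, led the class with 30.8 ± 4.52 CPM per kb in KO and 29.2 ± 3.04 CPM per kb in WT libraries. Its CPM were 144, 149 and 112 in KO 1 to 3, against 143, 119 and 120 in WT 1 to 3, and the 95% interval of the fold was 0.888 to 1.26. Sfrp2, of the same family, had 21.5, 23.4 and 22.7 CPM in KO 1 to 3, against 20.1, 19.7 and 20.4 CPM in WT 1 to 3, apart but by a fold of only 1.124 (edgeR adjusted p = 0.108). Frzb, an Sfrp relative, and Dkk3 had log2 fold changes of 0.39 and 0.24 (SE 0.21 and 0.20). Dkk1, which blocks Lrp6, had 7, 3 and 10 counts in KO 1 to 3, against 16, 13 and 8 counts in WT 1 to 3. Wif1, which binds Wnt proteins, had 3, 3 and 7 counts in KO 1 to 3, against 8, 1 and 13 counts in WT 1 to 3.

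The R-spondins, secreted proteins that spare Frizzled receptors from the ubiquitin ligases Znrf3 and Rnf43, were rare and uneven between libraries, and none passed. Rspo1 had 0.271, 0.439 and 2.45 CPM in KO 1 to 3, against 0.238, 0.269 and 0.913 CPM in WT 1 to 3. Rspo3 had 1.11, 1.29 and 4.46 CPM in KO 1 to 3, against 0.607, 1.49 and 1.82 CPM in WT 1 to 3. The hem ligand Wnt8b had 0.135, 0.247 and 1.76 CPM in KO 1 to 3, against 0, 0.388 and 0.313 CPM in WT 1 to 3. KO 3 was the highest library for each of these 3 genes, and WT 1 the lowest. With all libraries the log2 fold changes were 1.24, 0.87 and 1.81 (SE 0.97, 0.66 and 1.24), and without KO 3 they were -0.42, -0.10 and -0.21, so 1 library set their direction. Rspo2 had 1.22, 0.686 and 1.96 CPM in KO 1 to 3, against 0.412, 0.627 and 1.02 CPM in WT 1 to 3 (edgeR adjusted p = 0.126).

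The hem and diencephalon lists were also highest in KO 3 and lowest in WT 1. The 4 genes of the hem list that are not described as members here (Lmx1a, Msx1, Trp73 and Lhx5, none at 0) summed to 44.1, 32.8 and 51.4 CPM in KO 1 to 3, against 17.9, 32.2 and 29.1 CPM in WT 1 to 3. Of these Trp73 rose 1.86-fold (edgeR adjusted p = 0.000905), while Lmx1a, the defining hem gene, had 1.21 ± 0.325 CPM in KO and 1.20 ± 0.178 CPM in WT libraries. In the diencephalon and hypothalamus list 5 of 10 tested genes rose and 0 fell, with sums of 129, 88.5 and 181 CPM in KO 1 to 3, against 32.8, 79.3 and 60.5 CPM in WT 1 to 3; Rax and Foxb1 were at 0 in some libraries. Without KO 3 the count was 4, where 3.31% of all genes rose. The choroid plexus list summed to 28.7, 35.4 and 35.3 CPM in KO 1 to 3, against 14.6, 14.1 and 12.2 CPM in WT 1 to 3, with WT 1 the highest WT library and Folr1 and Kcnj13 at 0 in some libraries. In it Otx2 rose 2.62-fold, while the level of its defining gene Ttr was 0.0604 ± 0.0428 CPM in KO and 0.117 ± 0.106 CPM in WT libraries. The part of neighbouring tissue in these values was not tested.

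**Figure D5:**
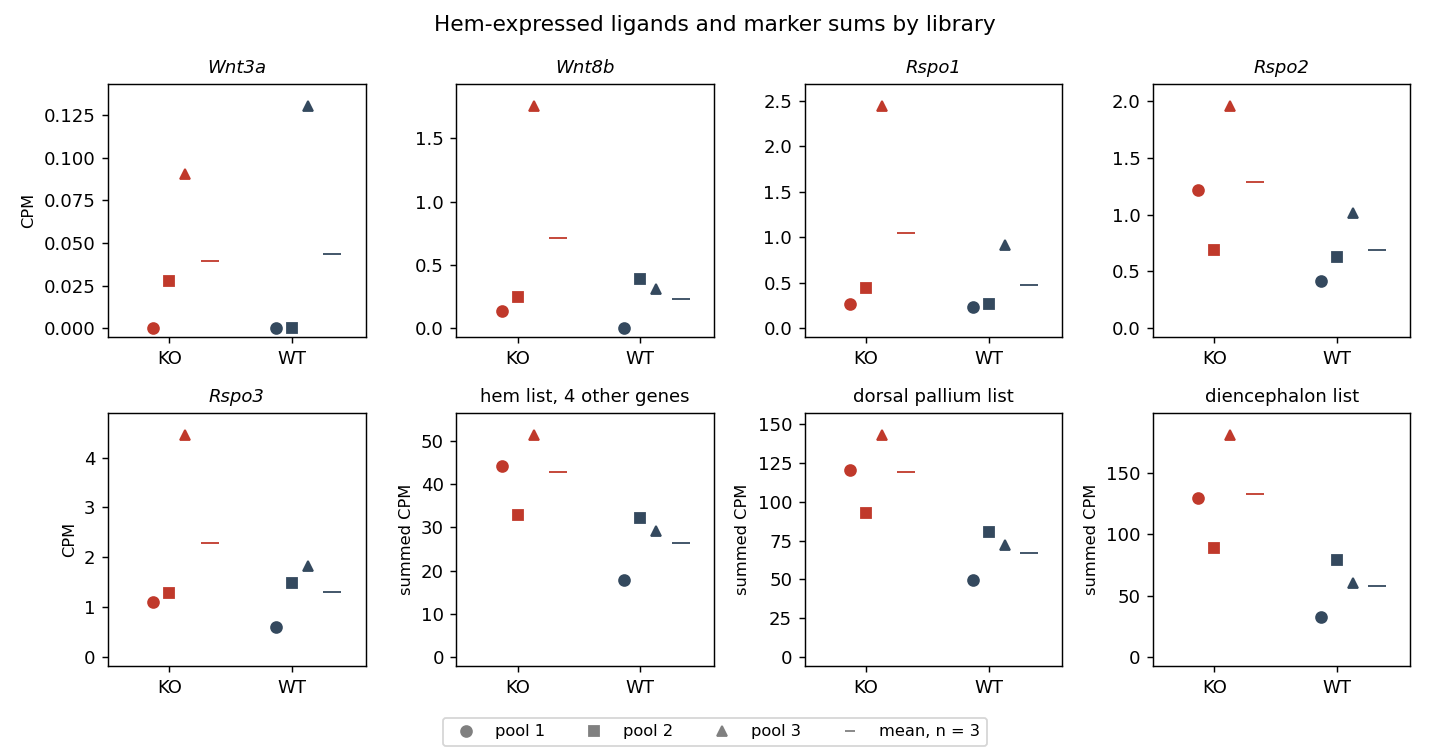
CPM of Wnt3a, Wnt8b and the R-spondins and summed CPM of 3 marker lists, by library (y axes: CPM; symbols: pools 1 to 3, not paired between groups; bars: mean of 3). KO 3 is the highest KO library in every panel, and WT 1 is the lowest WT library, or shares the lowest value in the Wnt3a panel.

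The R-spondin receptor Lgr4 was the most abundant of its axis, with 20.1, 23.1 and 18.7 CPM in KO 1 to 3, against 21.05, 18.3 and 16.6 CPM in WT 1 to 3. The groups overlapped and the fold of 1.103 had a 95% interval of 0.933 to 1.30. Lgr5, another R-spondin receptor, averaged 0.619 ± 0.0636 CPM in KO and 0.518 ± 0.0687 CPM in WT libraries. Znrf3 had 11.5 ± 0.480 CPM in KO and 11.01 ± 0.526 CPM in WT libraries, while its partner Rnf43 was rare, at 0.407 ± 0.0244 CPM in KO and 0.634 ± 0.102 CPM in WT libraries, and its libraries did not overlap (log2 fold change -0.63, edgeR adjusted p = 0.0954).

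In the cytoplasm Apc fell and the other 8 genes did not pass. Apc (ENSMUSG00000005871, chromosome 18, 34220924 to 34322552), the scaffold of the beta-catenin destruction complex, had 411.7, 348 and 357 CPM in KO 1 to 3, against 477, 469 and 466 CPM in WT 1 to 3. The WT libraries were close together and KO 1 was the highest KO library. Apc was 1.27-fold lower (fold 0.790, 95% interval 0.706 to 0.884, edgeR adjusted p = 0.0138). Its call was lost in each fit that left out 1 library other than KO 1 (adjusted p up to 0.0667). Beta-catenin itself led all members, with 254.8 ± 0.621 CPM per kb in KO and 227.7 ± 3.4 CPM per kb in WT libraries. It had 1324, 1326 and 1319 CPM in KO 1 to 3, against 1203, 1172 and 1172 CPM in WT 1 to 3. The libraries were tight and did not overlap, yet the 1.119-fold difference (1.02 to 1.22) missed the threshold (edgeR adjusted p = 0.0736). Ctnnb1 passed in DESeq2, in limma voom and without KO 1.

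Axin2, a direct feedback target of beta-catenin, had 28.8, 24.6 and 28.3 CPM in KO 1 to 3, against 29.7, 30.7 and 33.1 CPM in WT 1 to 3. The groups were just apart (log2 fold change -0.19, SE 0.08, edgeR adjusted p = 0.112), and Axin2 passed as lower without KO 1 (adjusted p = 0.0273). Nkd1, another feedback inhibitor, had 25.2 ± 2.51 CPM in KO and 22.6 ± 0.453 CPM in WT libraries. Gsk3b, the kinase that marks beta-catenin for destruction, had 364, 330.3 and 307 CPM in KO 1 to 3, against 377, 372 and 359 CPM in WT 1 to 3 (edgeR adjusted p = 0.161). The scaffold gene Axin1 and the Dishevelled genes Dvl1, Dvl2 and Dvl3 had log2 fold changes from -0.07 to -0.01. Dvl2 shares 18.3% of its exon bases with Acadvl on the other strand, and Ctnnb1 shares 14.6% with Ulk4. Without a stated strand setting the reads of such pairs cannot be told apart.

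Of the 4 TCF/LEF factors Tcf7l1 and Lef1 rose, Tcf7l2 fell and Tcf7 did not pass. Tcf7l1 (ENSMUSG00000055799, chromosome 6, 72626378 to 72789254), known mostly as a repressor of Wnt targets, had 24.5, 26.7 and 31.1 CPM in KO 1 to 3, against 17.3, 15.8 and 15.8 CPM in WT 1 to 3. No WT library reached any KO library, and Tcf7l1 rose 1.68-fold (95% interval 1.45 to 1.95, edgeR adjusted p = 0.0013). Tcf7l2 (ENSMUSG00000024985, chromosome 19, 55741820 to 55933654), a factor known from the thalamus, had 23.8, 22.6 and 22.8 CPM in KO 1 to 3, against 24.2, 34.9 and 31.1 CPM in WT 1 to 3. WT 1 was close to the KO libraries and the other WT libraries were well above them. Tcf7l2 fell to 0.769 of the WT level (0.641 to 0.923) with an edgeR adjusted p of 0.0482, and did not pass in 10 of 15 alternatives, among them each fit that left out 1 library other than WT 1 (0.0788 to 0.181).

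Lef1 (ENSMUSG00000027985, chromosome 3, 131110471 to 131224356), an activator and itself a Wnt target, had 4.65, 5.46 and 6.31 CPM in KO 1 to 3, against 3.86, 3.40 and 3.70 CPM in WT 1 to 3. The groups did not overlap, and Lef1 rose 1.497-fold (1.21 to 1.86, edgeR adjusted p = 0.0205). It did not pass without KO 2 (adjusted p = 0.0651), KO 3 (0.0828), WT 2 (0.0850) or WT 3 (0.0728). Of its exon bases 13.7% overlap the antisense gene Gm43352, which had 8 to 21 counts per KO library and 10 to 14 per WT library. Tcf7l1 shares 4.56% with the antisense gene Gm15401, at 4 to 11 counts per KO library and 2 to 7 per WT library. Tcf7, the remaining factor, had 4.725 ± 0.262 CPM in KO and 5.30 ± 0.349 CPM in WT libraries and did not pass. Per kb of exon, the ratio of Tcf7l1 to Tcf7l2 was 2.30, 2.64 and 3.05 in KO 1 to 3, against 1.603, 1.01 and 1.14 in WT 1 to 3. Tcf7l1 made up 57.9 ± 2.59% of the TCF/LEF sum in KO and 41.6 ± 3.42% in WT libraries, with sums of 12.04 ± 0.969 CPM per kb in KO and 10.02 ± 0.280 in WT libraries.

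Brain endothelium, in which Lef1 is active and Wnt7 signals are received, was measured beside these genes. Of 13 endothelial genes 0 rose and 3 fell (Cldn5, Slco1c1 and Tie1), none was at 0, and the sums ran from 297.6 to 343 CPM in KO and from 352 to 359.5 CPM in WT libraries. Without KO 1, 1 rose and 8 fell, where 20.6% of all genes rose and 20.9% fell. With all libraries those shares were 9.72% and 10.5%. Reck, which forms the Wnt7 co-receptor of endothelium with Adgra2, rose 1.22-fold (edgeR adjusted p = 0.0255), while Adgra2 had 12.1 ± 1.78 CPM in KO and 14.9 ± 0.392 CPM in WT libraries (adjusted p = 0.0763). Of 10 microglia genes 0 rose and 3 fell, and 1 fell without KO 3, where 4.31% of all genes fell. Their sums were 48.6 to 55.9 CPM in KO and 65.0 to 68.0 CPM in WT libraries. Of 7 tested meningeal genes 0 passed, with sums of 33.7 to 36.8 CPM in KO and 31.0 to 32.6 CPM in WT libraries. Lum and Aldh1a2 were at 0 in some libraries. Of 10 red blood cell genes 4 rose (the embryonic globin genes Hba-x, Hbb-y and Hbb-bh1, and Slc4a1) and 2 fell (the adult globin genes Hbb-bs and Hbb-bt), with sums of 1007 to 1607 CPM in KO and 662 to 724 CPM in WT libraries. Of 12 genes of the lateral ganglionic eminence 1 rose and 9 fell, with sums of 564 to 687 CPM in KO and 773 to 980 CPM in WT libraries, none at 0. The part of these cells in the Wnt results was not tested.

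Of 16 genes listed as feedback or target genes of beta-catenin, 8 of them members, 14 were tested, 2 rose (Ccnd1 and Lef1), 1 fell (Myc) and 11 did not pass, with a median log2 fold change of -0.11. The share that passed, 21.4%, is near the 20.2% of all genes and is not a result about the list. Among 15 tested genes 2 rose and 4 fell without KO 1, where 20.6% of all genes rose and 20.9% fell. Without KO 3 the counts were 1 and 1, where 3.31% of all genes rose and 4.31% fell. Ccnd1, a cell cycle cyclin, had 235, 248 and 235 CPM in KO 1 to 3, against 130.5, 109 and 109 CPM in WT 1 to 3 (edgeR adjusted p = 6.46e-05). Myc, a growth regulator, had 14.7, 14.1 and 13.7 CPM in KO 1 to 3, against 21.4, 19.3 and 20.4 CPM in WT 1 to 3 (edgeR adjusted p = 0.00248). The groups were apart for both genes, in opposite directions. Apcdd1, a target active in vessels, had 48.1, 32.6 and 36.6 CPM in KO 1 to 3, against 50.99, 51.5 and 50.8 CPM in WT 1 to 3 (adjusted p = 0.0529).

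Other genes of the pathway gave 6 higher and 14 lower among 71 tested of 85 listed (28.2%, against 20.2% of all genes). By direction 8.45% were higher, against 9.72% of all genes, and 19.7% were lower, against 10.5%. Of 20 tested modulators outside the cell 3 rose and 3 fell. Sfrp4 (2.45-fold) and the glypican gene Gpc4 (1.43-fold) rose. Sfrp5 fell 3.99-fold, to 0.226, 0.274 and 0.236 CPM in KO 1 to 3, against 0.629, 1.34 and 1.02 CPM in WT 1 to 3, and Igfbp4 fell 1.31-fold. Sfrp4 and Sfrp5, both Frizzled-like inhibitors at low levels, thus changed in opposite directions (edgeR adjusted p = 0.00268 and 0.00506). Of 35 cytoplasmic and nuclear genes 3 rose and 9 fell. They include Cxxc5 (1.29-fold higher), the corepressor gene Tle4 (1.22-fold higher) and the genes of the Apc-binding protein Amer2 (1.31-fold lower) and the Dvl-binding protein Dact1 (1.27-fold lower). Of 14 planar polarity genes 2 fell, Celsr3 (1.35-fold) and Prickle2 (1.55-fold), and of 11 further ligands 2 could be tested and 0 passed. Without KO 1, 14 rose and 27 fell among 72 tested genes, where 20.6% of all genes rose and 20.9% fell. Without KO 3, 4 rose and 4 fell among 71, where 3.31% of all genes rose and 4.31% fell.

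How many members passed depended on the libraries used. Without KO 1, 10 rose and 10 fell among 49 tested members (40.8%, against 41.5% of all genes in that fit, 20.6% higher and 20.9% lower). The genes that came in were Fzd3, Lrp5, Lrp6, Wls, Gsk3b, Dvl3 and Axin2, all lower, and Ctnnb1, Ryk and Sfrp2, all higher, while Wnt7b and Tcf7l2 dropped out. Merged exon lengths of those lower ran from 5506 (Axin2) to 13672 bases (Lrp6). Those higher had 2153 (Sfrp2) to 5192 bases (Ctnnb1). With all libraries Apc (16116 bases) and Tcf7l2 (8775) fell, but so did Ror2 (4242) and Fzd6 (4818), and Lef1 (8788) rose. The part of exon length in these calls was not tested. Without KO 3, 5 rose and 1 fell, where 3.31% of all genes rose and 4.31% fell (7.62% in all). Without KO 2, 7 rose and 1 fell, where 3.12% of all genes rose and 4.17% fell (7.29% in all). The member counts were 8 higher and 2 lower without WT 1, where 4.44% of all genes rose and 6.31% fell (10.8% in all). They were 5 and 1 without WT 2, where 2.59% of all genes rose and 3.9% fell (6.49% in all), and 6 and 1 without WT 3, where 2.49% of all genes rose and 3.91% fell (6.4% in all). Of the 12 genes that passed with all libraries 5 passed in every one of 15 alternatives, namely Fzd1, Fzd7, Fzd9, Ror2 and Tcf7l1.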

How the data were processed

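Total RNA from pools of dissected tissue was sequenced. The table that the authors deposited holds unnormalized counts for each Ensembl gene. Tools named for GRCm38, per the submitters' processing notes, are STAR 2.5.2b, Trimmomatic 0.36, Subread 1.5.2 with featureCounts, and DESeq2, with annotation release and strandedness not given in the sources used here. A deposited normalized table was not used here.

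Symbols, positions and merged exon lengths came from GENCODE M21, which held 49056 of 49315 gene IDs. After filterByExpr (at least 10 counts, total of 15) genes were scaled by TMM and tested, KO against WT, with edgeR 4.0.16 (robust quasi-likelihood, R 4.3.3) and Benjamini-Hochberg adjustment over 18079 genes. A standard error is the log2 fold change over the square root of F. Tested on simulated data of the same design (18056 genes), the fit recovered 77% of 1.5-fold and 90% of 2-fold changes, with 5.65% of calls false. Only 100 genes per fold were changed, all of them well counted. Spread followed the fitted trend with level, with no spread particular to a gene and no library apart like KO 1. These rates therefore do not carry over to rare genes or to the calls in these libraries. CPM per kb is CPM over exon length. No list was tested as a set.

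Members and lists were chosen with earlier results of these data known. Any member could be named. From other lists up to 4 genes that passed, by smallest p, were to be named. Further ones (Reck, Adgra2, Apcdd1, Lmx1a, Msx1, Lhx5, Ttr and genes listed with a count) were chosen after their values were seen. Labels describe separate pools. Same-numbered libraries did not deviate together, so no pairing was used. Alternatives were other scalings, filters and tests (DESeq2 1.42.0, limma 3.58.1 voom), a replicate block and each library left out.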

Additional observations from a re-analysis of the deposited data

How the results depend on the processing

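Over 713 pairs of a tested member and an alternative setting, direction and call were as reported in 650. The call was lost in 32 and gained in 14, and the sign changed in 17, all in genes that passed in neither fit. Log2 fold changes of those genes ran, with 1 library left out, from -0.037 to 0.017 for Wnt7a, -0.21 to 2.38 for Wnt8b, -0.015 to 0.079 for Porcn, -0.13 to 0.022 for Fzd2, -0.13 to 0.030 for Fzd4, -0.074 to 0.077 for Fzd5, -0.0029 to 0.43 for Dkk3, -0.42 to 2.12 for Rspo1, -0.10 to 1.23 for Rspo3, -0.034 to 0.028 for Axin1 and -0.062 to 0.023 for Dvl1. With no filter on low counts they were 0.00044 for Wnt7a, 0.0028 for Fzd5 and 0.0094 for Axin1.

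Leaving out 1 library gave 5 to 10 members higher and 1 to 10 lower, 3 to 14 further pathway genes higher and 3 to 27 lower, and 464 to 3752 genes higher and 727 to 3804 lower over all genes. The upper counts are those without KO 1, and each such fit has fewer samples. With the replicate number as a block, 887 genes were higher and 1244 lower, among them 3 and 9 further pathway genes and 7 and 4 members. Under the block Lef1 (adjusted p = 0.0533) and Tcf7l2 (0.0901) did not pass in edgeR, and Fzd3 passed as lower (log2 fold change -0.76, adjusted p = 0.0450). Same-numbered libraries had deviations with correlations of -0.08, -0.12 and 0.03, and no number had its KO and WT libraries correlate best with each other. The median log2 fold change of all genes lay between -0.014 and 0.005 under the other scalings. Counting error limits rare genes such as Fzd10, which had 10 to 62 counts per library. The floor of 3 counts is worth 0.0544 to 0.0823 CPM in KO and 0.0650 to 0.0896 CPM in WT libraries. Fzd10 was above that floor in every library. Rspo1 had 12, 16 and 135 counts and Wnt8b 6, 9 and 97 counts in KO 1 to 3, a spread beyond counting error.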
